A study of Mus musculus with 6 samples.

Results

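The miR-15/16 family was followed in mouse embryonic stem cells (ESCs) as 9 mature miRNAs chosen by name from a table of 1907: mmu-miR-15a-5p, mmu-miR-15a-3p and mmu-miR-16-1-3p from a locus on chromosome 14, mmu-miR-15b-5p, mmu-miR-15b-3p and mmu-miR-16-2-3p from a locus on chromosome 3, mmu-miR-16-5p from both loci, and mmu-miR-195a-5p and mmu-miR-497a-5p from chromosome 11. All 9 were in the table and all 9 passed the filter on low counts, which left 571 miRNAs to test. Small RNA was sequenced from 2 ESC lines, RB18 and RB20, in 3 media, and each of the 6 libraries was made from a pool of 3 independently grown cultures. Both lines came from C57BL/6 mice, were derived in R2i with leukemia inhibitory factor (LIF), and were grown without feeder cells on gelatin. Cells moved to 2i or to serum then went through at least 10 passages. All cultures received 1000 U/ml LIF. Serum cultures had 15% fetal bovine serum and no inhibitor. The 2i cultures were serum free with 1 µM PD0325901, a MEK inhibitor, and 3 µM CHIR99021, a GSK3 inhibitor. The R2i cultures were serum free with 1 µM PD0325901 and 10 µM SB431542, a TGF-β receptor inhibitor. Serum and inhibitors therefore changed together between serum and the ground-state media, and their parts cannot be told apart. The serum-free cultures were also in N2B27 medium, which the paper names for 2i and R2i only. R2i and serum differ in culture history as well, since the serum cells were moved out of R2i. These parts cannot be told apart either. Each medium had 2 libraries, 1 from each line, so a spread within a medium is also a difference between lines, and each line stands for a single derivation.

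A microRNA hairpin yields a 5p and a 3p arm, and the arm loaded into Argonaute pairs with target mRNAs mainly through its seed, bases 2 to 8 of the mature strand. The miR-15/16 family is defined by a shared seed on its 5p arms and is known for repressing cell-cycle and survival genes, among them D- and E-type cyclins and Bcl2. The chromosome 14 genes lie in Dleu2, a long non-coding RNA whose human counterpart lies in a region often deleted in chronic lymphocytic leukemia. The chromosome 3 genes lie in Smc4, which encodes a subunit of condensin.

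The mature sequences are printed with the seed in capitals, because the family is defined by it and because single bases separate the members in sequencing. They were taken from RefSeq (GRCm38.p6), which held all 9.
miR-15a-5p: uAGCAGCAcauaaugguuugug
miR-15b-5p: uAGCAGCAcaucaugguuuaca
miR-16-5p: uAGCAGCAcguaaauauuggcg
miR-195a-5p: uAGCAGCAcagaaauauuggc
miR-497a-5p: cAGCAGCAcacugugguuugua
miR-15a-3p: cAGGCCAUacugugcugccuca
miR-15b-3p: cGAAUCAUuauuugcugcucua
miR-16-1-3p: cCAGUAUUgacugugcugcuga
miR-16-2-3p: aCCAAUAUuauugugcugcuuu

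All 5 of the 5p members had the seed AGCAGCA. The 4 members from 3p arms had 4 different seeds, so a 3p member shared the hairpin of its 5p partner and not its seed. The letters UGCUGC, searched on the mature strand, were in all 4 of the 3p members and in 14 of 1679 mature miRNA names of the RefSeq table (0.834%). They are the reverse complement of GCAGCA in the shared seed, and the arms of a hairpin pair with each other. The letters are therefore not a trait independent of the seed that defines the family. miR-15a-5p and miR-15b-5p were identical over their first 11 bases and differed at 4 of 22. miR-16-5p and miR-195a-5p differed at 2 of the 21 bases compared, the closest pair among the members from different genes. Reads from such pairs can be assigned to the wrong member by sequencing errors, and the mismatches allowed in alignment were not given in the sources used here.

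Mir15a (chr14:61632027-61632110, minus strand, mm10) and Mir16-1 (chr14:61631880-61631972, minus strand) lay 54 bases apart. Of 15 annotated Dleu2 transcripts, 8 spanned both genes, which were intronic apart from a 13-base overlap of Mir16-1 with an exon of 1 transcript. Mir15b (chr3:69009772-69009835, plus strand) and Mir16-2 (chr3:69009902-69009996, plus strand) lay 66 bases apart in introns of Smc4, spanned by 5 of its 11 transcripts, with no exon overlap. Mir497 (chr11:70234717-70234800, plus strand) and Mir195a (chr11:70235042-70235135, plus strand) lay 241 bases apart. The hairpins of Mir16-1 and Mir16-2 are shown with both mature arms in capitals, because their 5p arm is the same miR-16-5p while their 3p arms differ at 10 of 22 bases.
Mir16-1: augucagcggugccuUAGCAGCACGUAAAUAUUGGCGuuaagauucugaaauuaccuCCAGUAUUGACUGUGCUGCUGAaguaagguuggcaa
Mir16-2: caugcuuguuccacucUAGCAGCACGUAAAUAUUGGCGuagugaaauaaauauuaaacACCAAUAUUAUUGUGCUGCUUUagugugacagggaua

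A miR-16-5p read therefore cannot be given to either gene, whereas each 3p read can. How reads that align to both genes were counted was not given in the sources used here.

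Total miRNA counts ran from 1041858 to 3593356 per library, and the RB18 library was the smaller in every medium. Levels are given as CPM (counts scaled to a common library size) after TMM scaling, which adjusts each library for its composition. The ESC label was checked with 9 miRNAs of the miR-290 and miR-302 clusters, all of which had counts in every library and together reached 270000 to 354300 CPM. Of 5 blood miRNAs, miR-223-3p was at 0 in all 6 libraries and miR-451a, the red-cell miRNA, had 0 and 3 counts in serum and 22 to 66 in the other media. miR-144-3p had 0 to 14 counts, miR-486a-5p 28 to 101 and miR-142a-3p, from white blood cells, 91 to 701, most of the counts of the list in every library but R2i RB20. miR-142a-3p was lowest in R2i, with 107 and 91 counts, so the list did not move as a whole. Its sum was 291.3 and 300.4 CPM in serum, 385.4 and 163.4 CPM under 2i, and 139.8 and 75.5 CPM under R2i. Of 2 muscle miRNAs, both had counts in serum and in R2i and miR-1a-3p was at 0 in 2i, with sums of 45.1 to 79.4 CPM in serum and 0.305 to 7.72 CPM in the other media. Of 2 neuronal miRNAs both had counts throughout, with sums of 430.2 to 752.9 CPM, and the liver miRNA miR-122-5p had 0 to 3.47 CPM.

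The family was dominated by miR-16-5p. In serum it reached 26640 CPM in RB18 and 27330 CPM in RB20, in 2i 39440 and 45800 CPM, and in R2i 27590 and 44230 CPM. It ranked between 4 and 9 among the miRNAs of each library and held 91.7% to 94.4% of the counts of the 9 members. miR-15b-5p followed in every library, with 939.4 to 1474 CPM, and miR-15a-5p measured 222.1 to 776.8 CPM. Mature miRNAs of 21 or 22 bases need no correction for length, but ligation favors some sequences over others, so the order of different miRNAs describes the libraries and not molecules per cell.

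**Figure D1:**
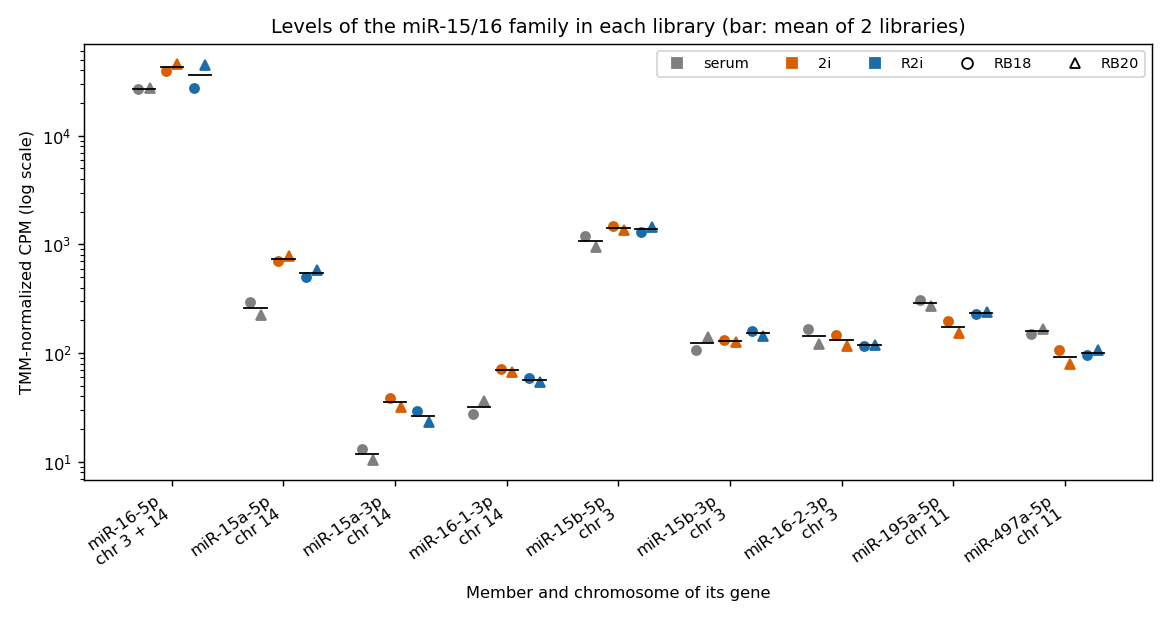
TMM-normalized CPM on a log axis for each member, with 1 point per library (gray serum, orange 2i, blue R2i, circles RB18, triangles RB20) and a bar at the mean of the 2 libraries of a medium. The 3 chromosome 14 members sit higher in all 4 ground-state libraries than in both serum libraries.

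In serum the order below miR-15b-5p (1064 ± 176 CPM; mean ± SD, n = 2 here and below) was miR-195a-5p (289.7 ± 24.8), miR-15a-5p (258.1 ± 50.9), miR-497a-5p (158.3 ± 11.7), miR-16-2-3p (143.7 ± 32.2), miR-15b-3p (124.6 ± 23.6), miR-16-1-3p (32.0 ± 6.58) and miR-15a-3p (11.8 ± 1.93). The neighbors miR-195a-5p and miR-15a-5p overlapped between libraries, as did miR-497a-5p with miR-16-2-3p and miR-16-2-3p with miR-15b-3p. In 2i, miR-15a-5p (739.7 ± 52.4) stood above miR-195a-5p (174.9 ± 31.0) without overlap, and miR-497a-5p (92.8 ± 19.3) stood below miR-15b-3p (129.2 ± 3.52). miR-16-2-3p (131.5 ± 21.5) and miR-15b-3p were the only neighbors in 2i whose libraries overlapped. In R2i no neighbors overlapped, and the order ran from miR-15b-5p (1375 ± 100 CPM) through miR-15a-5p (546.3 ± 58.0), miR-195a-5p (234.9 ± 8.36), miR-15b-3p (152.0 ± 10.7), miR-16-2-3p (118.1 ± 0.843), miR-497a-5p (101.4 ± 7.51) and miR-16-1-3p (56.8 ± 3.42) to miR-15a-3p (26.3 ± 4.04). miR-15a-5p thus took different places in the order, level with miR-195a-5p in serum and next to miR-15b-5p in the ground-state media.

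The comparisons with serum address which miRNAs differ in the ground state, the condition of cells held in inhibitors without serum. A miRNA was called when edgeR's quasi-likelihood test gave an adjusted p under 0.01, by the Benjamini-Hochberg method over all 571 miRNAs, and the change was more than 2-fold. Only the 3 members read from the chromosome 14 locus alone were called higher in any comparison with serum. They come from neighboring genes, and miR-15a-5p and miR-15a-3p from the same hairpin, so they do not count as independent members. In 2i, 3 of 9 members were called higher, against 16.8% of all miRNAs tested, and 0 were called lower, against 17.3%. In R2i, 1 of 9 was called higher, against 15.1%, and 0 lower, against 15.6%. With the mean of 2i and R2i taken as the ground state, 2 were called higher, against 17%, and 0 lower, against 20%. At an unadjusted p under 0.05, 2 members were lower under 2i, 1 under R2i and 2 with both combined, beside 29.1%, 26.8% and 29.9% of all miRNAs, and DESeq2 and limma also called 0 lower. The median log2 change of the members was 0.41 for 2i, 0.37 for R2i and 0.39 for the ground state, beside −0.03, −0.07 and −0.02 over all miRNAs tested. These comparisons share the serum libraries and the ground state repeats 2i and R2i, so their agreement is not independent. In bulk RNA, more cells with a miRNA and more of it per cell cannot be told apart.

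**Figure D2:**
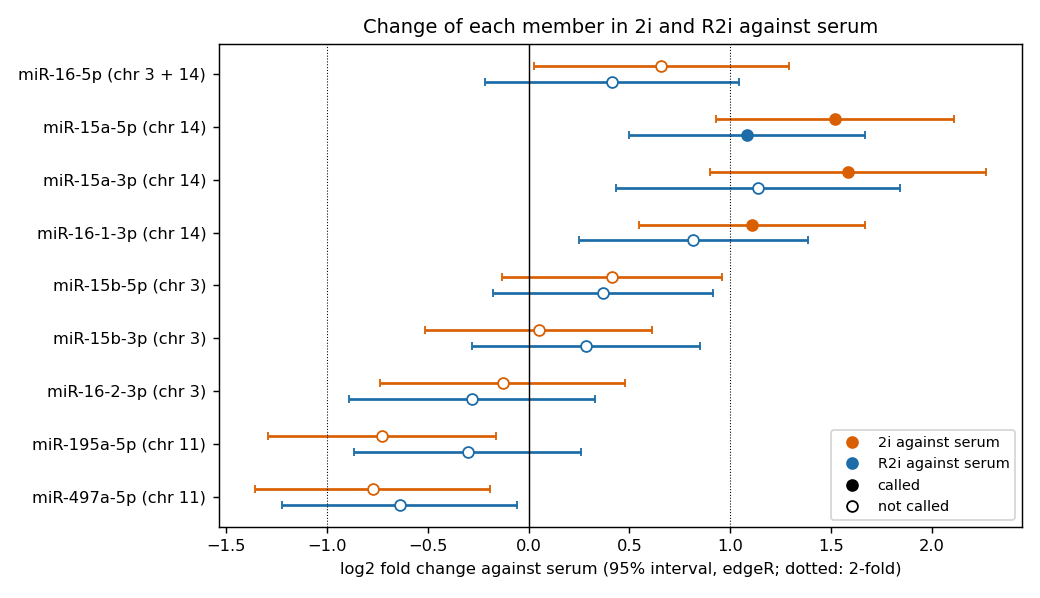
log2 fold change of each member in 2i (orange) and R2i (blue) against serum with the 95% interval from edgeR, where filled points were called and dotted lines mark 2-fold. The chromosome 14 members lie right of 0, the chromosome 3 intervals include 0, and the chromosome 11 estimates lie left of 0.

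miR-15a-5p, the 5p arm of the chromosome 14 locus, had 537 and 448 counts in serum, 1446 and 2544 under 2i, and 589 and 2053 under R2i (RB18, then RB20). As levels these were 294.0 and 222.1 CPM, 702.7 and 776.8 CPM, and 505.2 and 587.3 CPM. Every 2i library was above every R2i library, and every R2i library was above both serum libraries. miR-15a-5p rose in 2i by 1.52 on the log2 scale (SE 0.254, 95% interval 0.929 to 2.11, adjusted p = 0.00169 by edgeR) and in R2i by 1.08 (SE 0.252, 0.497 to 1.67, adjusted p = 0.00945). Against serum, the ground-state rise was 1.3 (SE 0.229, 0.768 to 1.83, adjusted p = 0.002), and it was called under every alternative tried, with adjusted p up to 0.0083. The call in 2i was lost without the 2i RB20 library (log2 change 1.48, adjusted p = 0.0125). The call in R2i was lost with cell line as a block (1.08, adjusted p = 0.0201) and in 5 of 6 fits that left out a library: without R2i RB18 (1.18, adjusted p = 0.0323), R2i RB20 (0.97, 0.064), 2i RB18 (1.09, 0.0159), 2i RB20 (1.1, 0.0216) or serum RB20 (0.84, 0.0281).

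miR-15a-3p, the rarer arm of the same hairpin, had 24 and 21 counts in serum, 80 and 105 under 2i, and 34 and 82 under R2i. Its levels were 13.1 and 10.4 CPM, 38.9 and 32.1 CPM, and 29.2 and 23.5 CPM, again in the order 2i, R2i, serum with no overlap. It rose in 2i by 1.58 on the log2 scale (SE 0.295, 0.900 to 2.27, adjusted p = 0.00288) and in the ground state by 1.36 (SE 0.270, 0.734 to 1.99, adjusted p = 0.00356). In R2i the log2 change was 1.14 (0.434 to 1.84) with adjusted p = 0.0174, which missed the call. The call in 2i was lost without 2i RB18 (1.48, adjusted p = 0.0202) or serum RB20 (1.37, 0.0235). The ground-state call was lost without 2i RB18 (1.32, adjusted p = 0.0121), serum RB18 (1.64, 0.0107) or serum RB20 (1.14, 0.0356).

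miR-16-1-3p identifies the Mir16-1 gene, since its sequence is not shared with Mir16-2. It had 50 and 74 counts in serum, 146 and 222 under 2i, and 69 and 190 under R2i, or 27.4 and 36.7 CPM, 71.0 and 67.8 CPM, and 59.2 and 54.4 CPM. As for miR-15a, 2i stood above R2i and R2i above serum without overlap. Such separation between pairs of libraries was not counted over all miRNAs tested, here or for the other members. It is therefore not read as particular to them. It rose in 2i by 1.11 on the log2 scale (SE 0.241, 0.549 to 1.67, adjusted p = 0.00624). With cell line as a block the adjusted p was 0.0142 at the same log2 change of 1.11, and the call was also lost with the 2i and serum libraries alone (1.16, adjusted p = 0.0114). It was lost when 2i RB18 (1.12, adjusted p = 0.0302), 2i RB20 (1.17, 0.0379), R2i RB20 (1.13, 0.0124), serum RB18 (1.02, 0.0192) or serum RB20 (1.28, 0.0108) was left out. In R2i its log2 change was 0.82 (0.249 to 1.39, adjusted p = 0.0289). In the ground state it was 0.96 (0.458 to 1.47, adjusted p = 0.00682), just under 2-fold, and it was called with DESeq2 (1.03, adjusted p = 0.00297).

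Without the fold limit, at an adjusted p under 0.05, the 3 chromosome 14 members were higher in all 3 comparisons, beside 25% of all miRNAs for 2i, 19.4% for R2i and 24.5% for the ground state. At that threshold miR-15a-3p in R2i missed without R2i RB18 (0.99, adjusted p = 0.077) or serum RB20 (0.92, 0.095), and miR-16-1-3p in R2i missed in all fits that left out a library except that without serum RB20, with adjusted p of 0.0551 to 0.0910. The sum of the fibroblast miRNA list (4 miRNAs) took the same order of media: 1420 and 1968 CPM in serum, 2289 and 2348 CPM in R2i, and 3269 and 3554 CPM in 2i. miR-143-3p held most of the sum, and the list did not move as a whole. Raw counts of miR-199a-3p were 58 and 92 in serum, 124 and 226 in R2i, and 207 and 278 in 2i (RB18, then RB20). Those of miR-145a-5p were 122 and 90, 71 and 257, and 111 and 292. miR-214-3p had 6 and 0 in serum, 1 and 4 in R2i, and 0 in both 2i libraries. The part of fibroblasts in the levels of the chromosome 14 members was not tested.

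The chromosome 3 members showed no called change. miR-15b-5p, which has the family seed, measured 1188 and 939.4 CPM in serum, 1474 and 1360 CPM under 2i, and 1304 and 1446 CPM under R2i. All 4 ground-state libraries were above both serum libraries, by a smaller margin than for miR-15a-5p. Its log2 change was 0.41 in 2i (−0.132 to 0.959, adjusted p = 0.175) and 0.37 in R2i (adjusted p = 0.249). The serum libraries decided its size: without serum RB18 the log2 change was 0.70 in 2i (adjusted p = 0.0328), 0.66 in R2i (0.0472) and 0.68 in the ground state (0.0284), and without serum RB20 it was 0.20, 0.16 and 0.18 (0.437, 0.562 and 0.447). miR-15b-3p, from the opposite arm, measured 107.9 and 141.3 CPM in serum, 131.7 and 126.7 CPM under 2i, and 159.6 and 144.5 CPM under R2i. Serum and 2i overlapped, and the log2 change in 2i was 0.05 (−0.512 to 0.615, adjusted p = 0.868). Both R2i libraries were above both serum libraries, with a log2 change of 0.28 (−0.281 to 0.850, adjusted p = 0.396). miR-16-2-3p, which identifies the Mir16-2 gene, measured 166.5 and 121.0 CPM in serum, 146.8 and 116.3 CPM under 2i, and 117.5 and 118.7 CPM under R2i. Its libraries overlapped between serum and 2i, with log2 changes of −0.13 in 2i (−0.736 to 0.479, adjusted p = 0.71) and −0.28 in R2i (adjusted p = 0.433). Without serum RB18 these were 0.23 and 0.07. On the log2 scale, the intervals in 2i left room for changes of up to 0.959 for miR-15b-5p and 0.615 for miR-15b-3p. For miR-16-2-3p they left room for changes down to −0.736.

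miR-16-5p, the product of both loci, had 48653 and 55123 counts in serum, 81168 and 149997 under 2i, and 32162 and 154634 under R2i. On the CPM scale given above, both 2i libraries were above both serum libraries. The R2i libraries were split by line, with RB18 at 27590 CPM, next to the serum RB20 level of 27330 CPM, and RB20 at 44230 CPM, within the range of 2i. The nearness of R2i RB18 to serum depended on TMM scaling. As a share of all miRNA counts, miR-16-5p was 3.09% in R2i RB18, above 2.79% in serum RB18 and 2.46% in serum RB20. The R2i RB18 library was also the smallest, with 1041858 counts. The log2 change was 0.66 in 2i (SE 0.272, 0.027 to 1.29, adjusted p = 0.076), 0.41 in R2i (−0.218 to 1.04, adjusted p = 0.269) and 0.54 in the ground state (−0.022 to 1.09, adjusted p = 0.0971), and none of these was called. In R2i the change was 0.72 without R2i RB18 (adjusted p = 0.0949) and 0.03 without R2i RB20 (0.939), and in the ground state 0.71 (0.036) and 0.36 (0.218). In 2i the adjusted p was under 0.05 with DESeq2 (0.0373), library totals (0.0392), at least 10 counts in every library (0.0361), the 2i and serum libraries alone (0.0336), or without either R2i library (0.0457 and 0.0427), and the change was under 2-fold in each. In the ground state it was under 0.05 with DESeq2 (0.0405), library totals (0.0425) and 10 counts in every library (0.0457). For this miRNA the paper reports a statistically significant difference between its qRT-PCR assay and its sequencing, which it describes as minor. The qRT-PCR values were not used here, so the changes above rest on sequencing alone.

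The chromosome 11 members, miR-195a-5p and miR-497a-5p, carry the same seed and are known from muscle and heart as brakes on the cell cycle. miR-195a-5p had 561 and 549 counts in serum, 405 and 501 under 2i, and 267 and 842 under R2i, or 307.2 and 272.2 CPM, 196.8 and 153.0 CPM, and 229.0 and 240.9 CPM. Both serum libraries were the highest and both 2i libraries the lowest. Its log2 change was −0.73 in 2i (SE 0.243, −1.30 to −0.16, adjusted p = 0.0383) and −0.30 in R2i (−0.865 to 0.262, adjusted p = 0.362), and the R2i change was −0.10 without serum RB18 (adjusted p = 0.779). miR-497a-5p had 274 and 336 counts in serum, 219 and 259 under 2i, and 112 and 373 under R2i, or 150.0 and 166.6 CPM, 106.4 and 79.1 CPM, and 96.1 and 106.7 CPM. Serum stood above all 4 ground-state libraries, which overlapped among themselves. Its log2 change was −0.77 in 2i (SE 0.250, −1.36 to −0.19, adjusted p = 0.0337), −0.64 in R2i (−1.22 to −0.06, adjusted p = 0.0778) and −0.71 in the ground state (−1.20 to −0.22, adjusted p = 0.0244).

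Neither member was called: the changes were under 2-fold and the adjusted p was above 0.01. At an adjusted p under 0.05 without a fold limit, both were lower in 2i, beside 26.1% of all miRNAs, and miR-497a-5p was lower in the ground state, beside 26.8%. These depended on scaling and filter. In 2i, miR-195a-5p missed with library totals (adjusted p = 0.0545 by edgeR), no filter (0.108) and 10 counts in every library (0.0614). It also missed with the 2i and serum libraries alone (0.0799), and passed with DESeq2 (0.0309) and limma (0.0392). In 2i, miR-497a-5p missed with no filter (0.0865) and with those libraries alone (0.0723). In 2i, miR-195a-5p passed that threshold in only 1 of the 6 fits that left out a library, that without serum RB20, and its adjusted p in the others was 0.0731 to 0.297. miR-497a-5p passed it in none of the 6, with adjusted p of 0.0565 to 0.283, nor with cell line as a block (−0.78, adjusted p = 0.0518). In the ground state, miR-497a-5p missed it in 5 of the 6, all but that without 2i RB18, with adjusted p of 0.0564 to 0.118.

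R2i and 2i differ in the second inhibitor, and that comparison asks whether media with the GSK3 or the TGF-β inhibitor leave different miRNA levels. They also differ in culture history, since both lines were derived in R2i and the 2i cells were moved from it. Inhibitor and history cannot be told apart. By edgeR, 0 of 9 members were called higher, as were 0% of all miRNAs, and 0 were called lower, beside 0.35%. No member had an unadjusted p under 0.05, beside 10.7% of all miRNAs on the higher and 7.53% on the lower side, and DESeq2 and limma called 0 as well. The log2 differences, R2i minus 2i, ran from −0.45 for miR-15a-3p to 0.43 for miR-195a-5p, with adjusted p between 0.399 and 0.954. For miR-15a-5p both 2i libraries (702.7 and 776.8 CPM) were above both R2i libraries (505.2 and 587.3 CPM), a difference that the test did not call.

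Ratios between members were formed inside each library and do not depend on scaling between libraries. The miR-15b-5p to miR-15a-5p ratio, which sets the chromosome 3 copy against that on chromosome 14, was 4.04 and 4.23 in serum, 2.10 and 1.75 under 2i, and 2.58 and 2.46 under R2i (RB18, then RB20). The miR-15b-3p to miR-15a-3p ratio was 8.06 and 13.3 in serum, 3.37 and 3.94 under 2i, and 5.41 and 6.13 under R2i. The miR-16-2-3p to miR-16-1-3p ratio was 6.03 and 3.28 in serum, 2.06 and 1.71 under 2i, and 1.98 and 2.18 under R2i. All 3 ratios were lower in the 4 ground-state libraries than in the 2 serum libraries, without overlap. Their denominators are the 3 chromosome 14 members described above, so the ratios are not independent of the changes of those members. Such separation was not counted over ratios of other miRNAs, and it is not read as particular to these.

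On the log2 scale the ground state minus serum was −0.91 for miR-15b-5p to miR-15a-5p, −1.18 for miR-15b-3p to miR-15a-3p, and −1.17 for miR-16-2-3p to miR-16-1-3p. The exact two-sided permutation test gave p = 0.133 for each, the smallest that 4 against 2 libraries allow, and 0.311 after adjustment over the 7 ratios computed. This test therefore cannot reach 0.05 for a single ratio. The pooled SD within media was 0.113, 0.317 and 0.379 on the log2 scale for these 3 ratios. Serum RB20 and serum RB18 decided part of the size: the miR-15b-3p ratio fell by 1.54 without serum RB18 and by 0.82 without serum RB20, and the miR-16-2-3p ratio fell by 0.73 and 1.61.

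**Figure D3:**
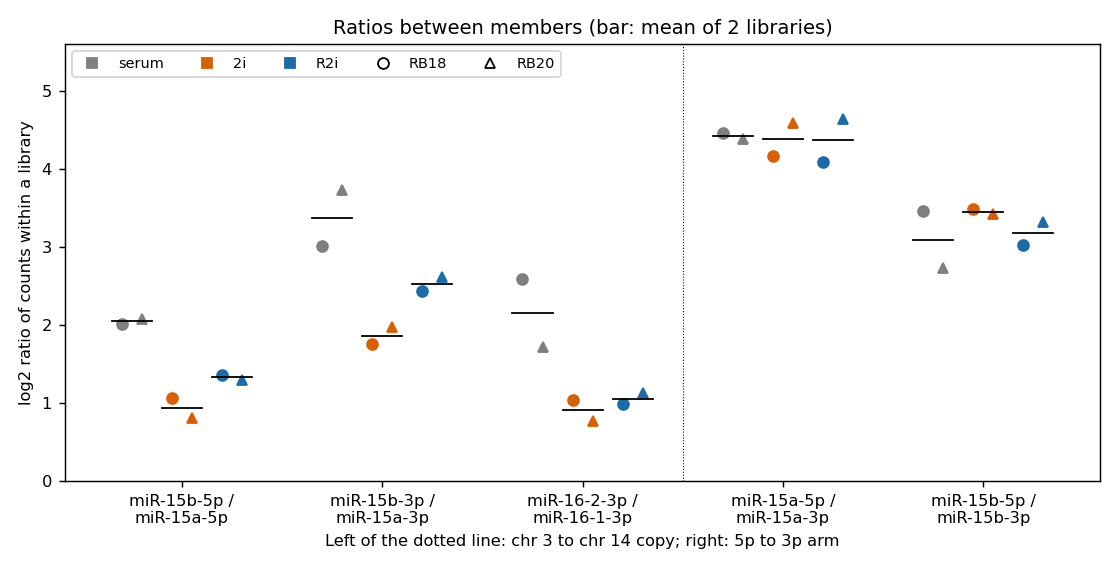
log2 ratio of counts between members within each library, colored by medium, with circles for RB18, triangles for RB20 and bars at the mean of 2 libraries. Left of the dotted line the 3 ratios of chromosome 3 to chromosome 14 copies are lower in 2i and R2i than in serum, and right of it the 5p to 3p ratios of the ground-state libraries overlap those of serum.

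The ratio of arms within a hairpin overlapped between serum and the ground-state libraries. For miR-15a the 5p to 3p ratio was 21.9 and 20.9 in serum, 18 and 24.1 under 2i, and 17.1 and 24.9 under R2i, a ground-state difference of −0.05 on the log2 scale (exact permutation p = 0.8). For miR-15b it was 11 and 6.64 in serum, 11.2 and 10.7 under 2i, and 8.15 and 10.0 under R2i, a difference of 0.22 (exact permutation p = 0.533). Both arms of Mir15a were thus higher in the ground-state media by close amounts, 1.3 and 1.36 on the log2 scale. The ratio of miR-16-5p to the sum of miR-15a-5p and miR-15b-5p was 18 and 23.5 in serum, 18.1 and 21.4 under 2i, and 15.2 and 21.8 under R2i. It differed by −0.12 on the log2 scale (exact permutation p = 0.667), and RB20 was higher than RB18 in each medium. The miR-497a-5p to miR-195a-5p ratio was 0.489 and 0.612 in serum, 0.541 and 0.517 under 2i, and 0.421 and 0.443 under R2i, a difference of −0.19 (exact permutation p = 0.4).

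As a share of all miRNA counts, the 9 members made up 3.03% (95% Wilson interval 3.00 to 3.05) and 2.63% (2.61 to 2.65) in serum, 4.23% and 4.72% under 2i, and 3.37% and 4.57% under R2i. The intervals cover counting error only and are far narrower than the differences between lines. Among the counts of the 8 members other than miR-16-5p, the chromosome 14 members held 14.8% and 14.1% in serum, 28.3% and 32.3% under 2i, and 23.8% and 24.4% under R2i. The chromosome 3 members held 64.9% and 62.9% in serum, 61.1% and 59.1% under 2i, and 63.3% and 62.8% under R2i. The chromosome 11 members held 20.3% and 23.0% in serum, 10.6% and 8.56% under 2i, and 13.0% and 12.8% under R2i. Chromosome 14 exceeded chromosome 11 in all 4 ground-state libraries and was below it in both serum libraries.

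**Figure D4:**
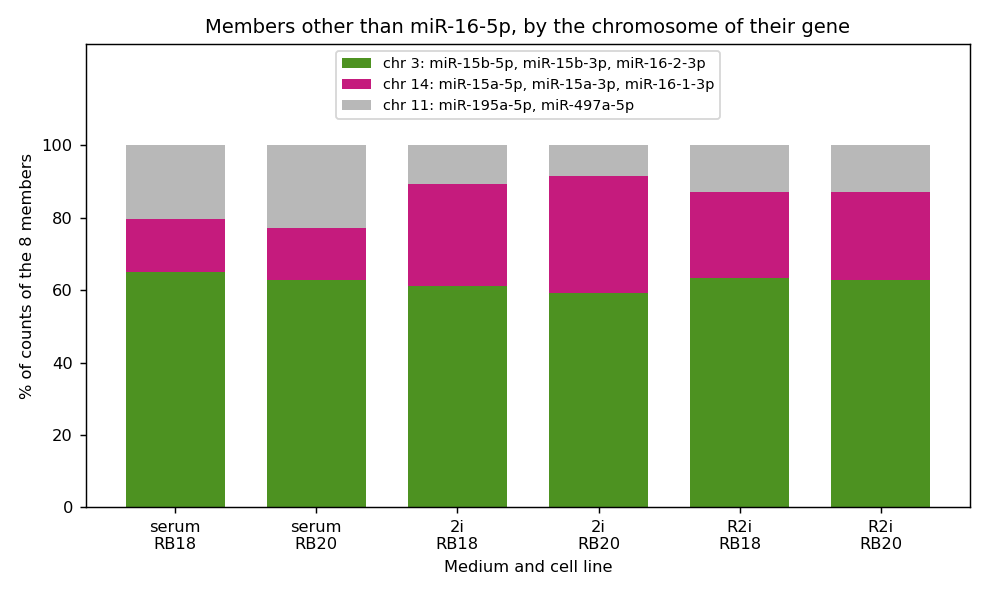
Share of the counts of the 8 members other than miR-16-5p, in percent, that came from the chromosome 3, chromosome 14 and chromosome 11 genes in each library. The chromosome 14 share is 14.1% to 14.8% in serum and 23.8% to 32.3% in the ground-state media, while the chromosome 3 share stays between 59.1% and 64.9%.

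The lines were compared by the interaction of cell line with the change from serum to the ground state, with 2i and R2i as the replicates of the ground state. The change of miR-15a-5p was 1.02 in RB18 and 1.61 in RB20 on the log2 scale, and that of miR-15a-3p was 1.36 and 1.40. For miR-16-1-3p it was 1.24 and 0.73, for miR-16-5p 0.31 and 0.72, and for miR-497a-5p −0.57 and −0.86. The 3 chromosome 14 members were higher and both chromosome 11 members lower in each line. By edgeR, 0 of 9 members and 0 of 571 miRNAs had an adjusted p under 0.05 for the interaction, with 0 members and 27 miRNAs at an unadjusted p under 0.05. The smallest adjusted p of a member was 0.875, and the interval for miR-15a-5p, −0.778 to 1.94 (RB20 minus RB18), left room for differences of more than 2-fold.

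Over the 6 libraries, the log2 level of miR-15a-5p correlated with miR-15a-3p at r = 0.956, with miR-16-1-3p at r = 0.892 and with miR-15b-5p at r = 0.914, and with miR-497a-5p at r = −0.932. miR-195a-5p and miR-497a-5p correlated at r = 0.871, whereas miR-15b-5p and miR-15b-3p from the same hairpin had r = 0.057. The 3 miRNAs outside the family most like miR-16-5p were miR-872-5p (r = 0.973), miR-493-3p (0.965) and miR-298-5p (0.964). Those most like miR-15b-5p were miR-295-3p (0.976), miR-29a-3p (0.973) and miR-877-3p (0.969). These values describe 6 libraries that share lines, media and scaling, and the closest of 571 miRNAs will be close in any such set.

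RefSeq listed 5 further mouse miRNAs with the seed AGCAGCA. miR-195b, miR-6342, miR-6353 and miR-6419 had 0 counts in all 6 libraries, which allows up to 2.88 CPM in the smallest library. The fifth, miR-322-5p from the X chromosome, is shown because its seed is that of the family.
miR-322-5p: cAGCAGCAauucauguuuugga

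miR-322-5p measured 898.6 and 521.0 CPM in serum, 279.9 and 316.3 CPM under 2i, and 441.8 and 1065 CPM under R2i, so that R2i spanned the serum libraries. Its log2 change in 2i was −1.25 (adjusted p = 0.0468 by edgeR), which was not called, and in R2i 0.09. All miRNAs with the seed together made up 3.09% and 2.65% of the library in serum, 4.22% and 4.72% under 2i, and 3.38% and 4.64% under R2i. miR-16-5p held 90.4% to 94.5% of these counts and miR-322-5p 0.652% to 3.05%.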

How the data were processed

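Per the labels, small RNA libraries were sequenced on Illumina instruments from 6 mouse ESC samples. The submitters' processing notes name FastQC 0.11.5, cutadapt 1.3, Bowtie 1.1.2, featureCounts 1.5 and build mm10. The authors deposited whole-number counts per mature miRNA, and a table of log2 values, which equaled log2 of the count divided by a DESeq2 size factor plus 1 to within 0.005. Handling of multi-mapped reads and of strand was not given in the sources used here.

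The deposited counts were filtered (filterByExpr, minimum count 10, minimum total 15, by medium), scaled by TMM and fitted in edgeR 4.0.16 (R 4.3.3) by quasi-likelihood with 1 coefficient per medium over all 6 libraries, leaving 571 of 1907 miRNAs and a common biological coefficient of variation of 24.6%. Calls needed a change of more than 2-fold at an adjusted p under 0.01. The SE was taken as the size of the log2 change over the square root of F. Ratios had 0.5 added to each count and were compared by exact permutation. Intervals of shares are Wilson. A count of 0 was read as up to 3 counts. The scripts were tested on simulated data. DESeq2 1.42.0, limma 3.58.1 on the deposited log2 values, other scalings and filters, and leaving out each library were alternatives. Cell line pairs the libraries of the media, as the same 2 lines were grown in each. Deviations of same-line libraries correlated at r = 0.21 (serum and 2i), −0.13 (serum and R2i) and 0.25 (2i and R2i). The edgeR p-values of the media rest on a spread within media that was estimated jointly over all 6 libraries. The 2 libraries of a medium are different lines and the main fit has no term for line, so that spread includes line differences. The p-values of the ratios come from permuting libraries.

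Named beside the members were the miRNAs with their seed, the passenger arms miR-195a-3p and miR-497a-3p, the 3 miRNAs most correlated with miR-16-5p and with miR-15b-5p, and marker lists for ESCs, blood, fibroblast, muscle, liver and neuron. The members and lists were chosen with earlier results of these data known.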

Additional observations from a re-analysis of the deposited data

How the results depend on the processing

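With cell line as a replicate block, the number of members called was 0 in R2i against serum, and the block changed no other call beyond those given beside the results. An adjusted p under 0.05 without a fold limit gave 5 members for 2i, 3 for R2i and 4 for the ground state. When 1 library was left out the counts were 1 to 3, 0 to 1 and 1 to 2. The medium left with 1 library was then assumed to vary like the others. The ground-state change of miR-16-1-3p was called under 6 alternatives, from 1.00 with no filter to 1.06 with 10 counts in every library. Library totals in place of TMM moved the median log2 change of all miRNAs in R2i against serum from −0.07 to 0.03. Leaving the 5 most abundant other miRNAs out of the totals raised the members' mean share to 5.34% in serum, 8.54% in 2i and 7.36% in R2i.

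Signs turned for small, uncalled values. R2i minus 2i for miR-15b-5p was 0.0035 with DESeq2 size factors, 0.0346 with library totals and 0.0118 with DESeq2. Leaving out a library gave, for R2i minus 2i, −0.136 to 0.000876 for miR-15b-5p, −0.644 to 0.0178 for miR-16-5p, −0.322 to 0.00769 for miR-16-2-3p and −0.076 to 0.345 for miR-497a-5p. For miR-16-2-3p it gave −0.397 to 0.226 in 2i, −0.544 to 0.0733 in R2i and −0.471 to 0.15 in the ground state against serum. For miR-15b-3p in 2i it gave −0.022 to 0.205. The line difference ran from −0.209 to 0.291 for miR-15a-3p and from −0.302 to 0.353 for miR-195a-5p. The ratio differences ran from −0.134 to 0.0466 for the arms of miR-15a, −0.145 to 0.582 for the arms of miR-15b, −1.54 to −0.816 for miR-15b-3p to miR-15a-3p, −1.61 to −0.731 for miR-16-2-3p to miR-16-1-3p, −0.312 to 0.0763 for miR-16-5p to the miR-15 sum and −0.357 to −0.0323 for miR-497a-5p to miR-195a-5p. The causes were not tested. Of 531 member values under alternatives, 488 kept their direction and their side of the threshold. Most of these were uncalled in the main fit and stayed uncalled, so the count says little about the calls. Of the rest, 19 lost a call, 12 gained one, some of them at the looser threshold, and 12 changed sign. With 2 libraries per medium, the 95% intervals of uncalled changes were wide. Some included a 2-fold change, as for miR-16-5p in 2i (0.027 to 1.29 on the log2 scale). Others did not, as for miR-15b-3p in 2i (−0.512 to 0.615).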

Other observations

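The passenger arms of the chromosome 11 hairpins were far rarer than their 5p arms. miR-195a-3p had 27 and 84 counts in serum, 26 and 21 under 2i, and 31 and 69 under R2i (RB18, then RB20), or 14.8 and 41.6 CPM, 12.6 and 6.41 CPM, and 26.6 and 19.7 CPM. The lines differed most in serum, and the log2 change in 2i of −1.61 (adjusted p = 0.0402 by edgeR) was not called. miR-497a-3p had 0 to 4 counts per library. miR-497b, annotated on the strand opposite Mir497, also had 0 to 4 counts, and reads of the 2 genes can be told apart only if strand was used in counting.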
